A study of Mus musculus with 9 samples.

Results

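The 9 genes examined are used as markers of progenitor cells in the salivary gland. *Kit*, *Prom1*, *Sox2*, *Sox9*, *Sox10*, *Ascl3*, *Cd24a*, *Ly6a* and *Cd44* were followed by RNA-seq through 2 mouse epithelial cell lines and were taken by name from the deposited gene counts, where all 9 were found among 23366 gene entries. In every library *Ly6a* was the most abundant of the 9, followed by *Cd24a* and *Cd44*, then by *Sox9* and *Sox2* and, lower still, *Prom1*. Levels are given as TPM, which corrects the counts for gene length and for the depth of the library. *Kit*, *Ascl3* and *Sox10* were measured at under 1 TPM in every library. Only 6 of the 9 had enough counts to be tested. Of these, *Sox2* alone passed the test in any of 4 comparisons by the main method. It was called lower in the salivary line than in the oral line, in a comparison where 14.9% of all genes tested were called. This call was lost without replicate 2 or 3 of the oral line, where 5.61% and 7.14% of all genes were called. The direction of the change stayed the same.

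The salivary line, mSGc, arose by spontaneous immortalization of epithelial cells from the submandibular gland of adult (12-week-old) male C57BL/6 mice and was grown as monolayers on uncoated plastic. It was sequenced as 6 libraries, 1 for each condition, namely serum-free medium at passages P2, P4, P10 and P25 (SFM, which the labels call progenitor medium and which contains dexamethasone) and, at passages P10 and P25, serum-containing medium (SCM, which the labels call differentiating medium and which contains retinoic acid, hydrocortisone and triiodothyronine). IMOK is an immortalized line of mouse oral keratinocytes that the labels also assign to C57BL/6. It was sequenced as 3 replicate libraries in a medium of its own. Its passage is labelled early, while the paper gives IMOK the passage number of the P10 mSGc cells. Line, medium and experiment cannot be told apart in a comparison of mSGc with IMOK. No condition of mSGc has a second library, and nothing says that the IMOK replicates came from separate cultures, so p-values measure only the spread between these libraries. mSGc is not said to be a clone, and no intact gland is among the libraries used here. Between 6237884 and 18444963 reads per library were counted on genes. A count of 0 allows up to 3 counts, a limit that covers counting error only and corresponds to 0.163 to 0.481 CPM, the count scaled to the depth alone.

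IMOK replicate 1 stood apart from the other IMOK libraries. Among the 10189 genes that averaged 5 TPM or more, 17.9% lay outside a 2-fold range between replicate 1 and the mean of replicates 2 and 3. For the members, and for the genes of the lists below that were called, comparisons with IMOK were also run without it, and the value is given where a direction or a call changed. Both lines carried the markers of basal epithelium. *Krt5* and *Krt14*, the keratins of basal cells, were between 2559 and 9386 TPM in mSGc and between 3154 and 5150 TPM in IMOK, and all 5 basal markers examined exceeded 1 TPM in every library. The summed level of 6 acinar markers was 14.2 to 130 TPM in mSGc and 160 to 220 TPM in IMOK. Single genes dominated these sums. *Aqp5*, a water channel, was at 213, 111 and 73.0 TPM in IMOK replicates 1, 2 and 3. The highest mSGc sum, at P4, came mostly from *Prol1* and *Pip*, at 60.0 and 59.1 TPM. Only *Aqp5* did not overlap between the lines, and *Smgc* reached 1.76 TPM in mSGc and 0.039 TPM in IMOK. In the gland itself acinar cells make saliva.

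Progenitor cells of the salivary gland are recognized by combinations of surface proteins and transcription factors rather than by a single gene. *Kit* (c-Kit, CD117), *Prom1* (prominin-1, CD133), *Cd24a* (CD24), *Ly6a* (Sca-1) and *Cd44* are surface proteins by which cells can be sorted. *Sox2*, *Sox9* and *Sox10* are DNA-binding factors of the SOX family that act in the developing gland, and *Ascl3* is a basic helix-loop-helix factor of a ductal progenitor population that is also linked to ionocytes. In RNA from bulk culture, fewer cells that express a gene and less RNA of it per cell cannot be told apart.

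The promoters of *Sox2*, *Cd44* and *Prom1* are shown as the sequence context of the measured transcripts. The levels of *Sox2* and *Cd44* did not overlap between the lines, as for 22.3% of the 12885 genes tested, and *Cd44* was not called by edgeR. The level of *Prom1* set 1 library apart. They run from 220 bases before to 30 bases after the annotated start in RefSeq (table of build GRCm38.p6), and each window was matched letter for letter to a single place in mm9. Capitals mark GGGCGG (the core of a GC box), CCAAT and ACAAAG (a SOX-type core). Each was searched on both strands and is marked on either. None of these motifs overlaps another in these windows. The *Sox2* window is chr3:34548697-34548946, plus strand. The *Cd44* window is chr2:102741793-102742042, minus strand. The *Prom1* window is chr5:44492946-44493195, minus strand.
Sox2: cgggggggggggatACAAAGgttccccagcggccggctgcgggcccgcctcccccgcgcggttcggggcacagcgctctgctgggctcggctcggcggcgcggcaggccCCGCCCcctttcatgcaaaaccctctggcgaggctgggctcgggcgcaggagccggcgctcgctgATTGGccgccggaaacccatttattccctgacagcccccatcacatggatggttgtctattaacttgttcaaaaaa
Cd44: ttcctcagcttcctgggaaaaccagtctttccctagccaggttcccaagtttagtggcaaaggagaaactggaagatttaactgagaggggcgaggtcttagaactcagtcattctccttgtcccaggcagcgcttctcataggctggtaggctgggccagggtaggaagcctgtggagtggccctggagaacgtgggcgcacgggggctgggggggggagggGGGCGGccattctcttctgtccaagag
Prom1: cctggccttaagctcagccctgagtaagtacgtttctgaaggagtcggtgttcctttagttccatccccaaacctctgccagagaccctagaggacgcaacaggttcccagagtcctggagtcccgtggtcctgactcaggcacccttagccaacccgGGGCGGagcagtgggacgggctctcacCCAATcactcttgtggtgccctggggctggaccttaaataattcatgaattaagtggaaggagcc
The G and C content was 67.6% for *Sox2*, 58.4% for *Cd44* and 56.4% for *Prom1*. The *Sox2* window holds 1 match to each of the 3 motifs, that of *Prom1* holds 1 GGGCGG and 1 CCAAT, and that of *Cd44* holds 1 GGGCGG. Among 32527 distinct RefSeq windows of the same length, 34.0% hold GGGCGG, 33.4% CCAAT and 16.1% ACAAAG. The 5 genes with a window in that table are these 3 together with *Kit* and *Ascl3*.

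**Figure D1:**
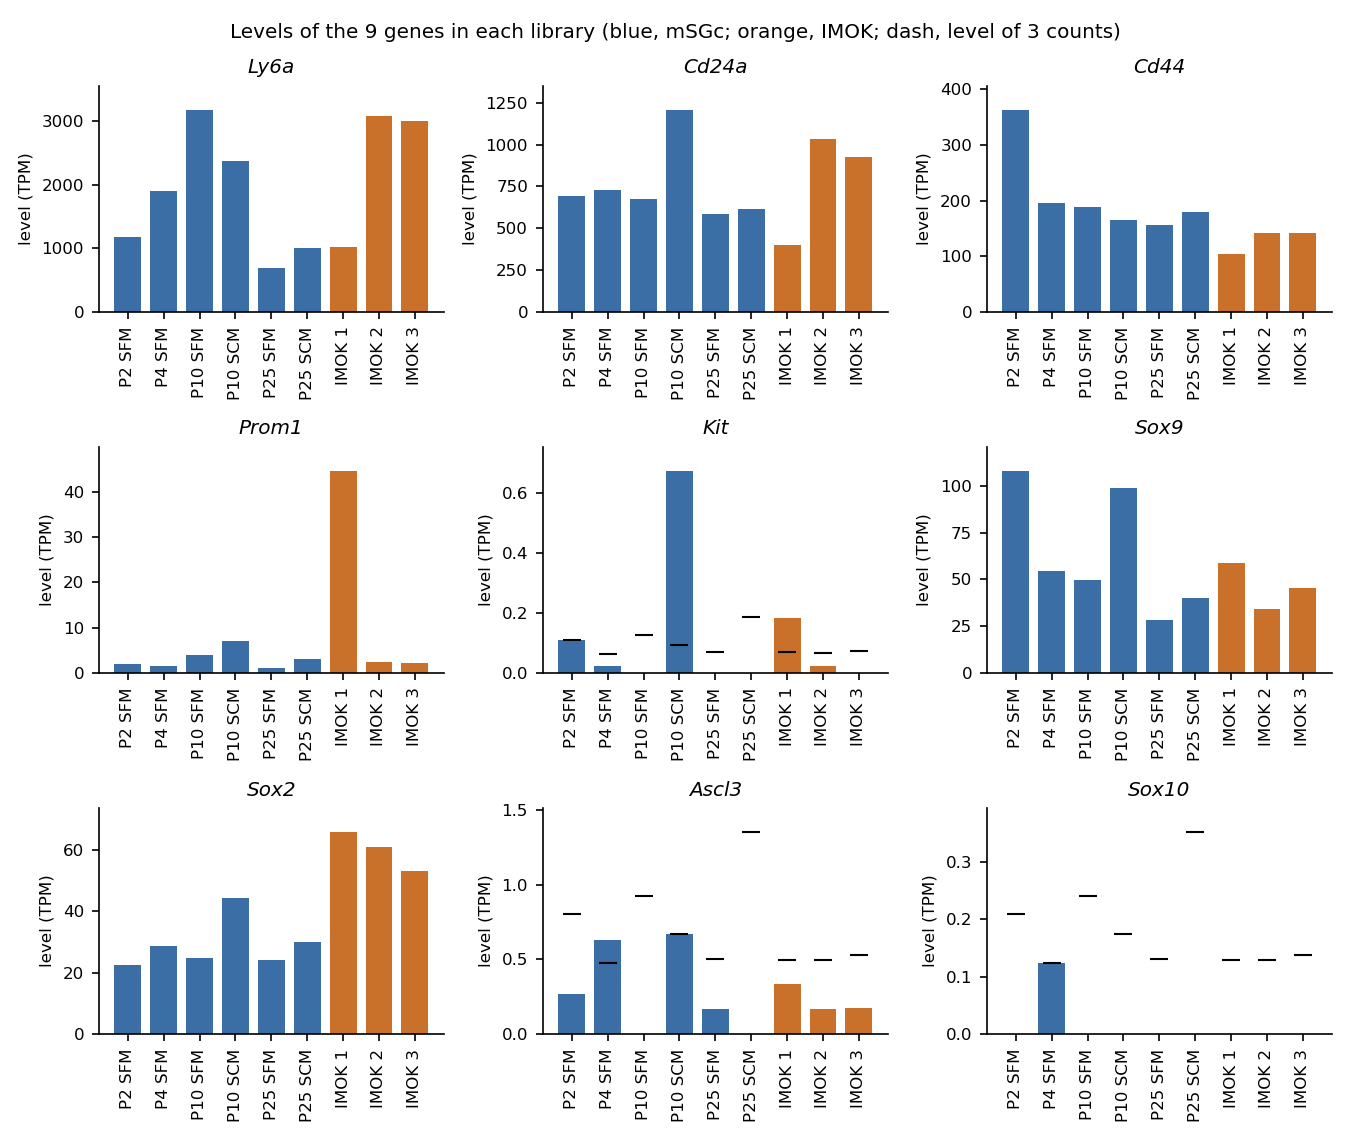
Level of each of the 9 genes (TPM, linear axis from 0, one scale per gene) in the 6 mSGc libraries (blue) and the 3 IMOK libraries (orange); 1 bar is 1 library, and dashes give the level of 3 counts for the 3 rarest genes. *Ly6a* reached 3168 TPM, *Prom1* stood at 44.5 TPM in IMOK replicate 1 alone, and *Kit* had its highest bar, 0.671 TPM, at P10 in SCM.

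Of the surface proteins, *Ly6a* encodes Sca-1, a small GPI-anchored protein of the Ly6 family by which stem and progenitor cells of several mouse tissues are isolated (chromosome 15, 74825307 to 74828461 of mm9, minus strand). Its level in SFM was 1170 TPM at P2, 1900 at P4, 3168 at P10 and 686 at P25, while in SCM it was 2375 TPM at P10 and 1007 at P25. In IMOK it was 1026, 3082 and 3003 TPM in replicates 1, 2 and 3. The P10 libraries were the highest of mSGc, the P25 library in SFM was the lowest of all 9, and the lines overlapped. *Ly6a* lay above at least 99.2% of gene entries in each library and made up 46.4% to 77.0% of the summed TPM of the 9 genes. Within mSGc its highest level was 4.62-fold its lowest, and IMOK replicate 1 was 2.97-fold below the mean of the other IMOK libraries, a gap that 6.68% of those 10189 genes exceeded. The mean was 1718 ± 942 TPM (SD, n = 6) in mSGc and 2370 ± 1165 TPM (SD, n = 3) in IMOK. The fitted log2 change was -0.30 (standard error 0.49, adjusted p = 0.728 by edgeR), less than the spread between libraries. *Ly6a* is an interferon-inducible gene, and the summed level of 8 interferon response genes was 1030 TPM at P2, 207 at P4, 283 at P10 and 71.7 at P25 in SFM, 440 TPM at P10 and 47.2 at P25 in SCM, and 207, 65.7 and 51.8 TPM in IMOK. The part of the interferon response in the level of *Ly6a* was not tested.

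*Ly6a* has close relatives in the same cluster, and how reads matching several genes were handled is not given in the sources used here, so its counts may be shared with them. *Ly6c1*, its neighbour in the family, was at 58.3 to 281 TPM in mSGc and at 150 to 545 TPM in IMOK. The ratio of *Ly6a* to *Ly6c1* was 9.76 to 15.2 in mSGc and 5.66 to 6.84 in IMOK, which did not overlap. This ratio was computed after the levels had been seen and was not tested, and neither gene was called. Levels of single genes did not overlap between the lines for 22.3% of the 12885 genes tested. The share for ratios of gene pairs was not computed. Of 15 Ly6 genes found in the tables, 10 could be tested between all mSGc and IMOK and 0 were called, where 14.9% of all genes were called. Their median log2 change was -0.23 against 0.002 for all genes. *Ly6e*, a widely expressed member, had the second highest mean of the family over the 9 libraries, at 602 to 1531 TPM in mSGc and 884 to 1498 TPM in IMOK, and exceeded *Ly6a* at P2. *Ly6d*, a marker of stratified epithelium, was at 50.4 TPM at P25 in SFM and 844 TPM in IMOK replicate 1, the ends of its range.

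*Cd24a* encodes the heavily glycosylated, GPI-anchored antigen CD24 of epithelial and progenitor cells (chromosome 10, 43298975 to 43304071, plus strand), whose gene has processed copies that may share reads. Of the 3 abundant members it varied least in SFM, where it was at 690 TPM at P2, 730 at P4, 678 at P10 and 583 at P25. In SCM it was at 1206 TPM at P10 and 618 at P25, and in IMOK at 402, 1031 and 928 TPM. The P10 library in SCM was thus the highest of all 9 and IMOK replicate 1 the lowest. The mean was 751 ± 229 TPM (SD, n = 6) in mSGc and 787 ± 337 TPM (SD, n = 3) in IMOK, and the fitted log2 change was 0.10 (standard error 0.32, adjusted p = 0.863 by edgeR). The sign of this small difference depended on the scale and on the libraries, and the log2 change was -0.24 without IMOK replicate 1.

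*Cd44* encodes the receptor for hyaluronan (chromosome 2, 102651300 to 102741822, minus strand). Counts are summed over its 19 exon blocks, so standard and variant forms of CD44 are not separated. Its level in SFM was 363 TPM at P2, 196 at P4, 188 at P10 and 156 at P25, while in SCM it was 165 TPM at P10 and 179 at P25. In IMOK it was 105, 141 and 142 TPM. The P2 library stood well above the other mSGc libraries, and every mSGc library lay above every IMOK library. Such a separation in either direction was found for 22.3% of the 12885 genes tested, and among the 6 members tested for *Cd44* and *Sox2*. The mean was 208 ± 77.3 TPM (SD, n = 6) in mSGc and 129 ± 21.2 TPM (SD, n = 3) in IMOK. The fitted log2 change was 0.88 (standard error 0.28), with an unadjusted p of 0.0107 and an adjusted p of 0.0624 by edgeR, so *Cd44* was not called. DESeq2 gave an adjusted p of 0.0137 and limma's voom one of 0.0490 for the same libraries, and without IMOK replicate 1 the adjusted p by edgeR was 0.156.

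The partners of CD44 were examined as a list of 8 genes, of which 7 could be tested between all mSGc and IMOK. Of these, 1 was higher and 1 lower in mSGc, where 14.9% of all genes were called, and the median log2 change was 0.37 against 0.002 for all genes. *Esrp2*, a splicing factor of epithelial cells that acts on *Cd44* among other transcripts, was higher, at 70.5 to 156 TPM in mSGc and 45.8 to 58.7 TPM in IMOK (log2 change 1.26, standard error 0.27, adjusted p = 0.0147 by edgeR). *Has2*, a synthase of hyaluronan, was lower, at 0.305 to 10.4 TPM in mSGc and 7.99, 28.8 and 33.3 TPM in IMOK (log2 change -2.65, standard error 0.73, adjusted p = 0.0371 by edgeR). Both calls were lost without IMOK replicate 2 (adjusted p = 0.0722 and 0.123 by edgeR) and without replicate 3 (0.0615 and 0.133), and that of *Has2* also without P2, P4 or P10 in SFM or P25 in SCM. *Msn* (moesin) and *Ezr* (ezrin), which link CD44 to the actin cytoskeleton, were the most abundant of the list, with means over the 9 libraries of 398 and 254 TPM, and neither was called.

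*Prom1* encodes prominin-1, a pentaspan protein of membrane protrusions (chromosome 5, 44384861 to 44492975, minus strand). Its level in SFM was 2.02 TPM at P2, 1.63 at P4, 4.02 at P10 and 1.03 at P25, while in SCM it was 7.004 TPM at P10 and 3.10 at P25. In IMOK it was 44.5, 2.37 and 2.096 TPM. Replicate 1 of IMOK was 19.9-fold above the mean of replicates 2 and 3, a gap exceeded by 0.481% of the same 10189 genes, and the other IMOK libraries lay inside the range of mSGc. The fitted log2 change of mSGc against IMOK was -2.12 (standard error 0.85, unadjusted p = 0.0318, adjusted p = 0.124 by edgeR), and it was 0.59 without IMOK replicate 1, so no direction can be given for *Prom1* between the lines.

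**Figure D2:**
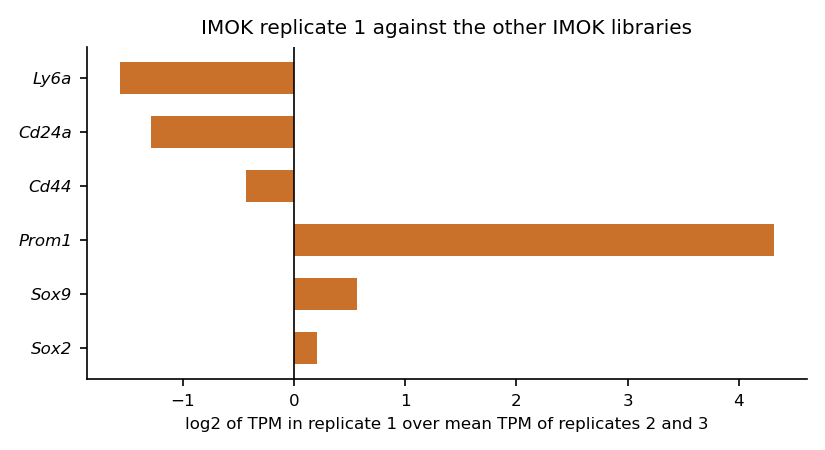
The log2 ratio of the level (TPM) in IMOK replicate 1 to the mean of IMOK replicates 2 and 3 for the 6 members with enough counts to test; bars start at 0 and have no error, as each is 1 library against 2. *Prom1* stands at 4.32, *Ly6a* and *Cd24a* lie below 0, and *Sox2* stands at 0.21.

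Other genes moved with *Prom1* in replicate 1. The summed level of 4 myoepithelial markers was 907 TPM in replicate 1 and 7.24 and 14.5 TPM in replicates 2 and 3, most of it from *Acta2* (smooth muscle actin), and 3 of the 4 were higher there. Of the 8 interferon response genes, 7 were higher in replicate 1. *Lgr6*, a stem cell marker of stratified epithelium, was at 36.9 TPM in replicate 1 and at 0.448 and 0.758 TPM in the others. The part of these differences in the level of *Prom1* was not tested. The 3 genes most like *Prom1* across the 9 libraries were *Wdr24*, *Pgap3* and *Zc3h3*, with a Pearson r of log2(TPM + 1) of 0.971, 0.965 and 0.965, and each of them was also highest in an IMOK library. These values describe 9 libraries that share 2 lines and 3 media.

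*Kit* encodes the receptor of stem cell factor (chromosome 5, 75971012 to 76052746, plus strand), on which isolation of salivary progenitors has often relied. It had 3 counts at P2, 1 at P4, 0 at P10 and 0 at P25 in SFM, 22 at P10 and 0 at P25 in SCM, and 8, 1 and 0 counts in IMOK. The 22 counts correspond to 0.671 TPM, with an exact 95% Poisson interval of 0.421 to 1.02 TPM. The 8 counts of IMOK replicate 1 correspond to 0.181 TPM (0.0782 to 0.357 TPM), while all other libraries were at or under 3 counts. *Kit* did not pass the filter on low counts in any of the 4 main fits and has no test there. Of 7 markers of mast cells, which carry KIT in tissue, *Cpa3*, *Mcpt4*, *Tpsab1*, *Tpsb2* and *Fcer1a* had no counts in any library, *Cma1* stayed at or below 0.404 TPM and *Hdc* was highest at P4, at 3.70 TPM. Of the 5 ionocyte markers, *Cftr*, a chloride channel, was highest at P10 in SCM, at 8.73 TPM against at most 2.098 TPM in the other libraries. *Foxi1*, *Atp6v0d2* and *Ascl3* also had their highest level there, at or below 0.672 TPM. *Atp6v1b1* was highest in IMOK replicate 1, at 7.92 TPM against 1.23 TPM at P10 in SCM. The part of ionocytes in the counts of *Kit* was not tested.

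The ligand of KIT and the FGF signalling genes that act with it in the developing gland were present. *Kitl* (stem cell factor) was at 24.5, 18.6, 61.5 and 17.1 TPM at P2, P4, P10 and P25 in SFM, at 84.6 and 41.0 TPM at P10 and P25 in SCM, and at 41.9, 38.1 and 29.8 TPM in IMOK. Both P10 libraries lay above IMOK, with a log2 change of 1.17 (standard error 0.21, adjusted p = 0.0442 by edgeR). This call was lost without IMOK replicate 2 or 3 (adjusted p = 0.186 and 0.141 by edgeR), where 0.283% and 0.538% of all genes were called. Without P10 in SFM or in SCM, which leaves a single mSGc library, the log2 change of *Kitl* was 1.29 and 0.999. With all mSGc libraries *Kitl* was not called. *Fgfr2*, the receptor of FGF10, was at 8.98 to 16.5 TPM in mSGc and 45.0 to 54.0 TPM in IMOK, with a log2 change of -1.77 (standard error 0.21, adjusted p = 0.000857 by edgeR). At P10 it was lower as well (log2 change -1.47, adjusted p = 0.0254 by edgeR). The P10 call was lost without IMOK replicate 2 or 3 (adjusted p = 0.141 and 0.0884 by edgeR). Without P10 in SFM or in SCM the log2 change of *Fgfr2* was -1.58 and -1.38. *Fgf10*, a mesenchymal ligand, stayed at or below 0.103 TPM. Of the 8 genes of this circuit 7 could be tested between all mSGc and IMOK, of which *Fgfr2* alone was called, a share near the 14.9% called over all genes. All 8 were higher in IMOK replicate 1 than in the mean of replicates 2 and 3.

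Among the transcription factors, *Sox9* (chromosome 11, 112643524 to 112649071, plus strand) is expressed in distal progenitors of branching glands and in ducts. Its level in SFM was 108 TPM at P2, 54.4 at P4, 49.7 at P10 and 28.4 at P25, while in SCM it was 99.0 TPM at P10 and 40.1 at P25. In IMOK it was 58.9, 34.0 and 45.5 TPM. P2 in SFM and P10 in SCM were the highest libraries, P25 in SFM was the lowest of all 9, and the lines overlapped. The mean was 63.2 ± 32.5 TPM (SD, n = 6) in mSGc and 46.1 ± 12.5 TPM (SD, n = 3) in IMOK, and the fitted log2 change was 0.64 (standard error 0.36, adjusted p = 0.256 by edgeR).

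*Sox2* (chromosome 3, 34548927 to 34551382, plus strand) is a pluripotency factor that also marks progenitors of oral and salivary epithelium. Its level in SFM was 22.5 TPM at P2, 28.8 at P4, 24.9 at P10 and 24.1 at P25, while in SCM it was 44.2 TPM at P10 and 29.95 at P25. In IMOK it was 65.8, 61.0 and 53.1 TPM. Every mSGc library lay below every IMOK library, with P10 in SCM nearest to them. The mean was 29.1 ± 7.94 TPM (SD, n = 6) in mSGc and 60.0 ± 6.42 TPM (SD, n = 3) in IMOK, which was 2.06-fold higher. The fitted log2 change was -0.83 (standard error 0.19, unadjusted p = 0.00149, adjusted p = 0.0187 by edgeR). *Sox2* was thus called lower in mSGc, 1 of 6 members tested, where 14.9% of all genes tested were called in either direction and 8.30% were called lower. Leaving out IMOK replicate 1 gave an adjusted p of 0.0396, leaving out replicate 2 one of 0.0851 and leaving out replicate 3 one of 0.0558 by edgeR, so the call was lost without either of the last 2 while the log2 change stayed between -0.81 and -0.87. Over all genes tested, 14.7%, 5.61% and 7.14% were called in the same fits.

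The *Sox2* gene lies within *Sox2ot*, a long non-coding transcript unit on the same strand, and whether reads were counted by strand is not given in the sources used here. *Sox2ot* had 9 to 48 counts per library, where *Sox2* had 231 to 1377. The 3 genes most like *Sox2* were *Gbf1*, *Cldn2* and *Mospd3* (Pearson r 0.974, 0.970 and 0.967, n = 9 libraries). *Cldn2*, a claudin of leaky tight junctions, was at 0.308 to 6.29 TPM in mSGc and 60.3 to 190 TPM in IMOK. The genes most like *Sox9* were *Rnf19b*, *Gpr126* and *Cytip* (0.967, 0.962 and 0.962). *Cytip* ran from 0.0615 to 61.7 TPM within mSGc, a wider range than *Sox9* itself.

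**Figure D3:**
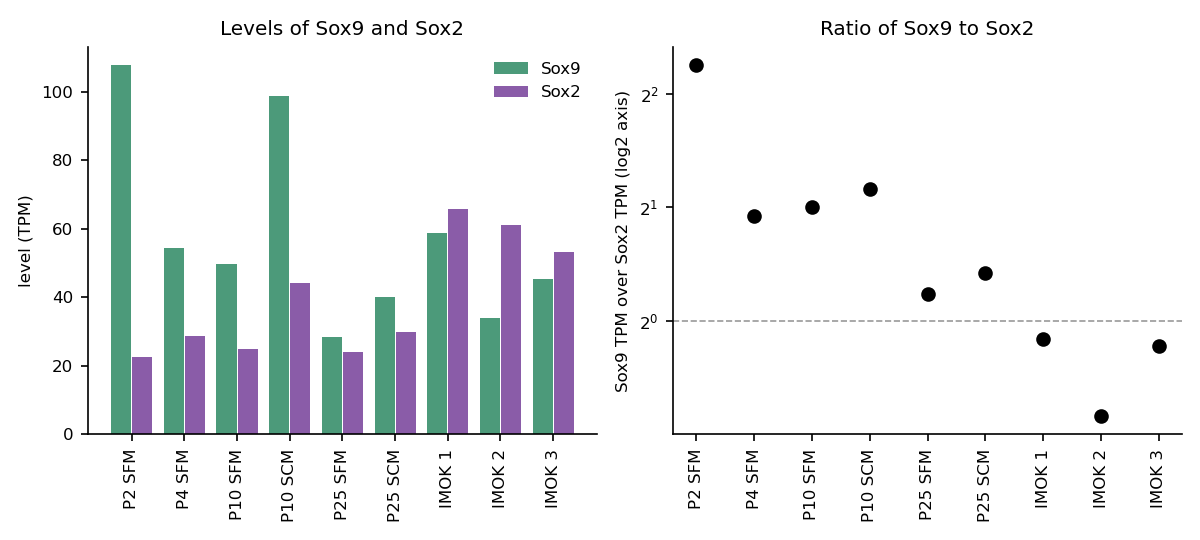
Left, level of *Sox9* (green) and *Sox2* (purple) in each library (TPM, linear axis from 0); right, *Sox9* TPM divided by *Sox2* TPM in each library on a log2 axis, with a dashed line where they are equal. The 6 mSGc libraries lie above the line, from 1.18 to 4.78, and the 3 IMOK libraries below it, from 0.557 to 0.895.

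The order of *Sox9* and *Sox2* differed between the lines. *Sox9* exceeded *Sox2* in 6 of 6 mSGc libraries and *Sox2* exceeded *Sox9* in 3 of 3 IMOK libraries. The ratio of *Sox9* to *Sox2* was 4.78 at P2, 1.89 at P4, 1.998 at P10 and 1.18 at P25 in SFM, 2.24 at P10 and 1.34 at P25 in SCM, and 0.895, 0.557 and 0.856 in IMOK. The ratio was computed after the levels had been seen and was not tested. Single genes did not overlap in level between the lines for 22.3% of the 12885 genes tested, and the share for ratios of gene pairs was not computed. Over all 9 libraries, the range of *Cd24a* lay above that of *Cd44* and the range of *Prom1* above those of *Kit*, *Ascl3* and *Sox10*, while the ranges of the other neighbours in the order of levels overlapped, although *Ly6a* exceeded *Cd24a* in each single library.

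*Sox10*, a factor of the neural crest that is also expressed in the salivary epithelium (chromosome 15, 78985343 to 78994920, minus strand), had 3 counts at P4 in SFM, which correspond to 0.123 TPM, and 0 counts in the other 8 libraries. *Ascl3* (chromosome 7, 116870979 to 116875246, minus strand) had 1, 4, 0 and 1 counts at P2, P4, P10 and P25 in SFM, 3 at P10 and 0 at P25 in SCM, and 2, 1 and 1 counts in IMOK. Its highest level was 0.672 TPM. Both genes lay at or under 3 counts in all libraries apart from *Ascl3* at P4, and neither passed the filter on low counts in the 4 main fits. At P25 in SCM, the shallowest library, 0 counts of *Ascl3* still allow 1.35 TPM. Without that filter all 9 members entered the comparison of all mSGc with IMOK, and 1 of them was called by edgeR. *Foxd3* of the neural crest and *Dct* of melanocytes, which mark other cells that express *Sox10*, had no counts in any library. *Foxi1*, a factor of ionocytes, stayed at or below 0.336 TPM.

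Of the whole SOX family, 20 genes were found in the tables and 8 reached 1 TPM in all 9 libraries. *Sox1*, *Sox14*, *Sox17* and *Sry* had no counts in any. Between all mSGc and IMOK 9 could be tested, of which 0 were higher and 3 lower in mSGc, where 14.9% of all genes were called and 8.30% called lower, with a median log2 change of -0.61 against 0.002 for all genes. Beside *Sox2* these were *Sox11*, a factor of embryonic progenitors, at 13.3 to 19.9 TPM in mSGc and 39.6 to 62.4 TPM in IMOK (log2 change -1.42, standard error 0.19, adjusted p = 0.00143 by edgeR), and *Sox6*, at 0.0256 to 0.624 TPM in mSGc and 0.443, 3.403 and 1.88 TPM in IMOK (log2 change -3.19, standard error 0.88, adjusted p = 0.0360 by edgeR). *Sox6* was called without P2 or without IMOK replicate 1 but not without any other single library (adjusted p from 0.0537 to 0.174 by edgeR). *Sox11* was called at P10 as well, with a log2 change of -1.49 (adjusted p = 0.0352 by edgeR). This call was lost without IMOK replicate 2 or 3 (adjusted p = 0.121 and 0.114 by edgeR), where 0.283% and 0.538% of all genes were called. Without P10 in SFM or in SCM, which leaves a single mSGc library, the log2 change of *Sox11* was -1.57 and -1.44. *Sox4*, the second most abundant member of the family after *Sox9* by its mean over the 9 libraries, was at 22.0 to 104 TPM in mSGc and 16.4 to 44.2 TPM in IMOK and was not called.

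**Figure D4:**
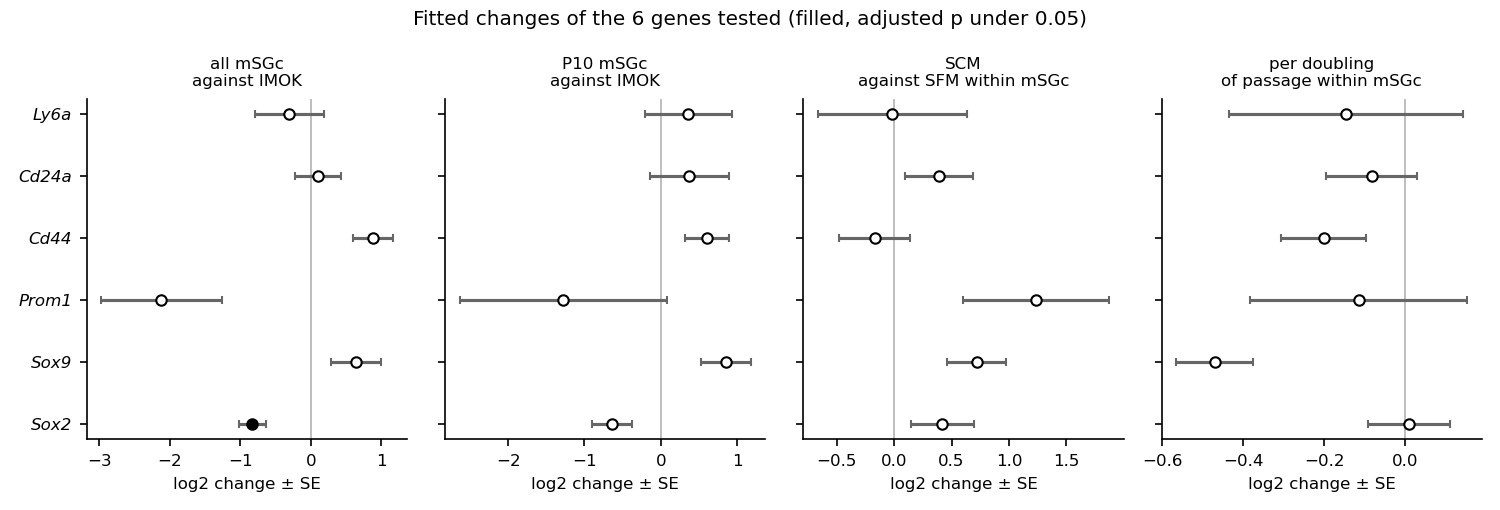
Fitted log2 change (points) with its standard error (bars) of the 6 members with enough counts to test, in 4 comparisons, each panel with its own scale; filled points have an adjusted p under 0.05 by edgeR. *Sox2* in the comparison of all mSGc with IMOK, at -0.83, is the single filled point.

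The P10 libraries alone, 1 in each medium, were set against IMOK because the study made its own comparison at that passage. The paper chose it to match the passage number of IMOK, which the labels call early. Of the 6 members tested 0 were called by edgeR, where 4.20% of all genes were called. That share was 27.1% without IMOK replicate 1, 0.283% without replicate 2, 0.538% without replicate 3 and 0% without either P10 library, and 0 members were called in each of these fits. *Sox9* alone had an unadjusted p under 0.05, as did 24.9% of genes, with a log2 change of 0.85 (standard error 0.33, unadjusted p = 0.0411, adjusted p = 0.183). *Sox2* had a log2 change of -0.64 (standard error 0.26, adjusted p = 0.202) and *Cd44* one of 0.60 (standard error 0.29, adjusted p = 0.265). The log2 change of *Prom1* was -1.28 (standard error 1.36, adjusted p = 0.603) with all libraries and 1.39 without IMOK replicate 1 (unadjusted p = 0.0143, adjusted p = 0.0519). *Cd24a* and *Ly6a* had log2 changes of 0.37 and 0.36, smaller than their standard errors. This comparison shares the IMOK libraries and the P10 libraries with that of all mSGc, so the 2 are not independent. Over all libraries, 3 of 6 members (*Sox2*, *Cd44* and *Prom1*) had an unadjusted p under 0.05, as did 30.4% of genes.

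Medium was compared within mSGc, with the passage number in the same fit, to ask how the progenitor markers differ between the medium named for progenitors and that named for differentiation. Of the 6 members tested 0 were called by edgeR, where 0.0241% of all genes were called. *Sox9* alone had an unadjusted p under 0.05, as did 8.18% of genes. It was higher in SCM at both passages, 1.99-fold at P10 and 1.41-fold at P25, with a log2 change of 0.72 (standard error 0.26, unadjusted p = 0.0271, adjusted p = 0.509). *Prom1* was 1.74-fold higher at P10 and 3.01-fold at P25 (log2 change 1.23, standard error 0.64, adjusted p = 0.725). *Sox2* was 1.78-fold and 1.24-fold higher and *Cd24a* 1.78-fold and 1.06-fold higher in SCM, with log2 changes of 0.42 and 0.39. *Ly6a* was 1.33-fold lower in SCM at P10 and 1.47-fold higher at P25, and *Cd44* was 1.14-fold lower and 1.15-fold higher. These ratios compare 1 library with 1 and have no replicate check. Without the P10 library in SCM, the log2 change was 0.35 for *Sox9* and 0.54 for *Prom1*.

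Passage was compared within mSGc as the change per doubling of the passage number, with medium in the same fit. Of the 6 members tested 0 were called by edgeR, where 0.490% of all genes were called. *Sox9* alone had an unadjusted p under 0.05, as did 13.2% of genes, with a log2 change of -0.47 per doubling (standard error 0.10, unadjusted p = 0.00169, adjusted p = 0.0950). From P10 to P25 *Sox9* went to 0.570 of its level in SFM and 0.405 in SCM, and at P25 in SFM it was 3.80-fold below P2. DESeq2 called *Sox9* (adjusted p = 0.00115), where it called 5.62% of genes. *Cd44* had a log2 change of -0.20 per doubling (standard error 0.11, adjusted p = 0.471), and its P2 library was the highest. *Sox2* had one of 0.009 (standard error 0.10), *Cd24a* of -0.08, *Ly6a* of -0.15 and *Prom1* of -0.12, each smaller than its standard error. The myoepithelial markers *Cnn1* (calponin) and *Myl9* fell with passage (adjusted p = 0.0382 and 0.0471 by edgeR). *Cnn1* was at 21.2 TPM at P2, 1.51 TPM at P4 and 0 counts in the other mSGc libraries, and *Myl9* at 107 and 19.1 TPM at P2 and P4 and 0.588 to 5.84 TPM in the others. Without P2 *Cnn1* did not pass the filter and *Myl9* had an adjusted p of 0.532, *Cnn1* also did not pass it without P4, and without P25 in SFM neither was called (0.177 and 0.0777). The call of *Myl9* was further lost without P4, P10 in SCM or P25 in SCM (adjusted p from 0.0820 to 0.120). The keratin *Krt8* of luminal ducts was, like *Sox9*, highest at P2 and at P10 in SCM, at 6326 and 3743 TPM, but ran from 672 to 2940 TPM in the other mSGc libraries. The part of these cell types in the level of *Sox9* was not tested.

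DESeq2 and limma's voom were also run on the main comparison of the lines. DESeq2 called *Sox2* and *Cd44* there, 2 members, where it called 22.8% of genes, and gave no p for *Prom1*. limma's voom called the same 2 members, where it called 16.6% of genes.

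Other markers by which salivary progenitors or basal and ductal stem cells are named were examined as a list of 20 genes, all found in the tables. Between all mSGc and IMOK 18 could be tested, of which 4 were higher and 2 lower in mSGc, where 14.9% of all genes were called, with a median log2 change of -0.14 against 0.002 for all genes. *Krt15*, a keratin of basal stem cells, was higher, at 43.0 to 548 TPM in mSGc and 2.66, 19.5 and 5.37 TPM in IMOK (log2 change 4.63, standard error 1.06, adjusted p = 0.0177 by edgeR). *Aldh3a1*, an aldehyde dehydrogenase, was at 184 to 1033 TPM in mSGc and 24.1 to 84.7 TPM in IMOK (log2 change 3.41, standard error 0.61, adjusted p = 0.00585). These 2 genes were also called at P10, but neither without either P10 library, *Krt15* not without IMOK replicate 3 and *Aldh3a1* not without replicate 2 (adjusted p from 0.106 to 0.141 by edgeR). For all mSGc the call of *Krt15* was lost without IMOK replicate 3 (adjusted p = 0.0745 by edgeR). *Cd9*, a tetraspanin, and *Krt14* were higher by 1.37 and 1.27 on the log2 scale (adjusted p = 0.0109 and 0.0297 by edgeR). The call of *Krt14* was lost without any 1 of the IMOK replicates or without P4 (adjusted p from 0.05002 to 0.121 by edgeR).

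**Figure D5:**
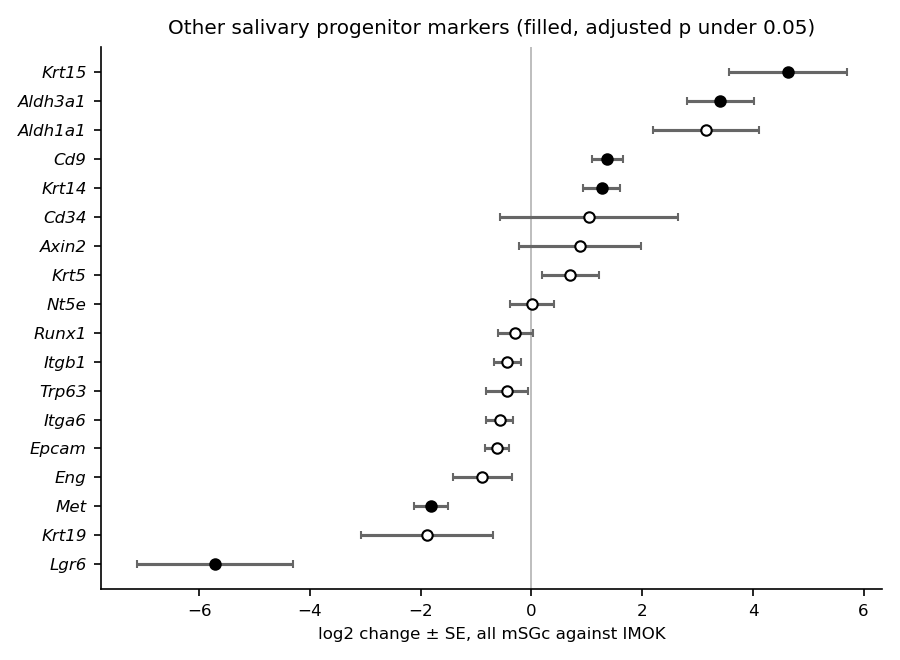
Fitted log2 change of all mSGc against IMOK (points) with its standard error (bars) for the 18 other progenitor markers with enough counts to test; filled points have an adjusted p under 0.05 by edgeR. *Krt15*, *Aldh3a1*, *Cd9* and *Krt14* lie above 0 and *Met* and *Lgr6* below it among the filled points.

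*Met*, the receptor of hepatocyte growth factor, was lower in mSGc, at 30.6 to 47.8 TPM against 80.2, 194 and 225 TPM in IMOK (log2 change -1.82, standard error 0.30, adjusted p = 0.00419 by edgeR). *Lgr6* was called lower (log2 change -5.72, standard error 1.41, adjusted p = 0.0237), yet of the IMOK libraries only replicate 1 stood above 1 TPM, and mSGc ran from 0 to 0.742 TPM. Without IMOK replicate 1 its log2 change was -1.53 (adjusted p = 0.402 by edgeR), and without P4 the adjusted p was 0.0529. *Lgr5*, a stem cell marker of the same receptor family, stayed at or below 0.401 TPM in all 9 libraries. Of the stem cell factors, *Klf4* and *Myc* were at 15.9 to 101 and 123 to 236 TPM in mSGc, *Pou5f1* stayed at or below 0.131 TPM and *Sall4* had no counts. Of 5 that could be tested between all mSGc and IMOK, 0 were called, where 14.9% of all genes were called. Between media and with passage, 0 genes of the 6 related lists were called, where 0.0241% and 0.490% of all genes were called.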

How the data were processed

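RNA from 6 mSGc monolayer cultures and 3 IMOK libraries was sequenced (RNA-seq). The authors deposited raw gene counts without normalization, in 2 tables with gene lengths and mm9 exon positions. The submitters' processing notes name TopHat2 2.1.1, Bowtie2 2.2.6, featureCounts 1.5.1 and DESeq2 1.12.4. The annotation, strand setting and treatment of reads with several matches are not given in the sources used here. The media named in the labels were taken as SFM (progenitor) and SCM (differentiating).

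TPM was computed from the counts and deposited lengths. Differences were tested with edgeR 4.0.16 (quasi-likelihood, TMM factors of 0.907 to 1.19, filterByExpr) in R 4.3.3, with Benjamini-Hochberg adjustment over all genes tested and a threshold of 0.05. This filter passed 6 of the 9 members. All mSGc against IMOK and P10 mSGc against IMOK were fitted without covariates, medium and log2 passage number together within mSGc. Standard errors are the absolute log2 change divided by the square root of F. The scripts were tested on simulated data.

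Alternatives were DESeq2 1.42.0, limma 3.58.1 (voom), library sizes without TMM, a filter of 10 counts in each library or none, each library left out in turn (for called genes of the lists this was added after the data had been seen), passage as a block over P10 and P25 alone, passage on a linear scale and the SFM libraries alone. Levels were also taken as TMM-scaled CPM or without IMOK replicate 1, and likeness by Spearman's rho or within mSGc. The members and gene lists were chosen with earlier results of these data known. Named genes are the 9 members, for each with at least 10 counts in at least 2 libraries the 3 genes with the highest Pearson r of log2(TPM + 1) among genes with a mean of at least 5 TPM, and of each list those called, those most abundant and defining markers at 0. *Ly6c1*, *Lgr5*, *Cftr*, *Foxi1*, *Atp6v0d2*, *Atp6v1b1*, *Fgf10*, *Ly6d*, *Pou5f1*, *Cma1*, *Hdc* and *Sox2ot* were named after their values were seen.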

Additional observations from a re-analysis of the deposited data

Results flagged for a closer look

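For 2 members the 2 passages or the 2 media moved in opposite directions, each as the log2 ratio of the TPM of 1 library to that of another, so the difference between them was not tested. The log2 ratio of SCM to SFM for *Ly6a* was -0.42 at P10 and 0.55 at P25. For *Cd44* it was -0.19 at P10 and 0.20 at P25. The log2 ratio of P25 to P10 for *Cd44* was -0.27 in SFM and 0.12 in SCM. No group has more than 3 libraries of 1 condition, so no library was tested as an outlier.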

How the results depend on the processing

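For all mSGc against IMOK the number of members called was 1 by edgeR, 2 by DESeq2, 2 by limma's voom and 0 to 1 when 1 library was left out, with 0 without IMOK replicate 2 or 3 (738 and 943 genes called in all). For passage it was 0 by edgeR and 1 by DESeq2 (*Sox9*). For P10 and for medium it was 0 in each alternative. Of 294 log2 changes of members under alternatives 269 kept direction and side of the threshold, 2 lost and 3 gained the call and 20 changed sign, 1 of these with an unadjusted p under 0.05. The 269 include *Prom1* by DESeq2 for all mSGc against IMOK, which had no p and was counted as not called.

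The log2 changes that turned when a library was left out had these ranges over the libraries. Against IMOK, *Prom1* ran from -2.63 to 0.59 and *Cd24a* from -0.24 to 0.34 for all mSGc, and for P10 *Prom1* from -1.86 to 1.39, *Cd24a* from -0.019 to 0.65 and *Ly6a* from -0.022 to 0.61. *Prom1* and *Ly6a* turned without IMOK replicate 1, and *Cd24a* without P10 in SCM (-0.029 for all mSGc) and, for all mSGc, without IMOK replicate 1. Between media, *Ly6a* ran from -0.81 to 0.70, *Cd24a* from -0.12 to 0.65 and *Cd44* from -0.46 to 0.16, the last 2 turning without P10 in SCM. Per doubling of passage, *Prom1* ran from -0.36 to 0.22 and *Ly6a* from -0.61 to 0.31, both turning without P25 in SFM, and *Sox2* from -0.11 to 0.054. The change of *Ly6a* with medium was 0.026 without TMM factors and 0.13 with voom. That of *Sox2* with passage was -0.007 without TMM factors and -0.003 per passage on a linear scale. Without TMM factors the median of all genes was -0.11 for all mSGc and -0.10 for P10 against IMOK. The cause was not tested.

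Of the genes most like each member, 0 to 2 of 3 were found again by Spearman's rho and 0 of 3 within mSGc. The lines were not compared in pairs, because mSGc and IMOK are separate lines and no label pairs their libraries. Within mSGc, media were also compared over P10 and P25 with passage as a block, which called 0 members. Of the 15 listed genes called between all mSGc and IMOK, *Sox2* aside, leaving out IMOK replicate 1 kept 12, leaving out replicate 2 kept 9 and leaving out replicate 3 kept 8, an alternative added after seeing the data. Depth limits *Sox10* and *Ascl3*, at 4 counts or fewer in every library, and *Kit*, which exceeded 3 counts in 2 libraries.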

Other observations

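The libraries also held different levels of genes that mark other cell types of a gland. The luminal keratins *Krt7*, *Krt8*, *Krt18* and *Krt19*, summed, were at 1787 to 13040 TPM in mSGc and 1755 to 3591 TPM in IMOK, and P2 in SFM and P10 in SCM were the highest libraries. The 4 myoepithelial markers, summed, were at 676 TPM at P2 and 5.66 TPM at P25 in SCM. Of the 5 ionocyte markers, whose sum was 11.3 TPM at P10 in SCM and at most 8.70 TPM elsewhere, 0 reached 1 TPM in every library. Markers of endothelium summed to at most 0.945 TPM, those of fibroblasts to at most 18.7 TPM and those of melanocytes to at most 6.55 TPM in any library. Schwann cell markers summed to 21.2 to 99.4 TPM in mSGc and 31.1 to 43.8 TPM in IMOK. Leukocyte markers summed to 1.88 to 4.15 TPM in mSGc and 4.99 to 33.9 TPM in IMOK, with *Cd3e* at 0 counts everywhere.

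Of the 38 genes of the cell type lists tested between all mSGc and IMOK, 5 were called by edgeR, where 14.9% of all genes were called. *Krt14* and the integrin *Itgb4* of basal cells were higher in mSGc (adjusted p = 0.0297 and 0.0448), though *Itgb4* was called without IMOK replicate 1 but not without any other single library (adjusted p from 0.0588 to 0.192). The water channel *Aqp5*, a marker of acinar cells, was lower, with a log2 change of -3.45 (standard error 0.69, adjusted p = 0.0101), at 1.40 to 20.9 TPM in mSGc and 73.0 to 213 TPM in IMOK. *Cd68*, a lysosomal protein of macrophages and other cells, and *Irf1*, a factor of the interferon response, were lower as well, by log2 changes of -2.26 and -1.09 (adjusted p = 0.0230 and 0.0174). The call of *Cd68* was lost without IMOK replicate 1 (adjusted p = 0.131), and that of *Irf1* without replicate 2 or 3 (0.0721 and 0.0537). These values describe 2 lines in different media, which cannot be told apart.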
